A study of Mus musculus with 6 samples.

Results

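The genes described here encode the NF-κB transcription factors and proteins that hold them in check or release them. They are the subunit genes Nfkb1, Nfkb2, Rel, Rela and Relb, the inhibitor genes Nfkbia, Nfkbib and Nfkbie, the negative regulator Tnfaip3 and the kinase gene Ikbkb. They were found by symbol in the deposited count table, which held all 10 of them among 49997 symbols, and all 10 were among the 7792 genes with enough counts to be tested. The libraries came from small pre-B cells, the B-cell precursors of the bone marrow that rearrange their light chain genes, sorted by flow cytometry from C57BL/6 mice of 6 to 12 weeks. The WT group had 3 libraries and the ΔrsCBE group had 3, and the labels name no treatment. The sources used here do not say which interval is deleted in ΔrsCBE mice, whether the mice carried 1 or both altered copies, or whether each library came from a separate mouse. The p-values therefore measure the spread between these libraries, which may be technical in whole or in part.

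NF-κB was first recognised as a nuclear protein that binds the enhancer of the kappa light chain gene in B cells, and it is a textbook regulator of kappa transcription. Its subunits act as dimers. IκB proteins keep the dimers in the cytoplasm until the IκB kinase marks them for destruction, and freed dimers then enter the nucleus and switch on genes that include their own inhibitors. Relb and the precursor made from Nfkb2 serve a slower branch of the pathway, driven in B cells by receptors such as the BAFF receptor.

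Promoter stretches of the family that hold letters matching the κB site are shown first, since some of these genes are known targets of NF-κB. The κB consensus was searched on both strands of the 300 bases around each start site listed by RefSeq on GRCm38.p6 (250 before and 50 after); it begins with GGG, goes on with a purine, any base, A or T and a pair of pyrimidines, and ends in CC. Overlapping matches were joined. The promoter table used, which is not complete, held 7 of the 10 genes (Nfkb2, Rel, Rela, Nfkbia, Nfkbib, Nfkbie and Tnfaip3), and 5 of these, all but Rela and Nfkbib, held a match. The same was true of 6.33% of the 6000 tested genes with a listed promoter and of 4.51% of all 32851 promoters. Letters were read on the strand of the gene, 5′ to 3′, and capitals mark the matches.

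Nfkbia, chr12:55492648-55492777 on the minus strand, the stretch just before the start site:
Nfkbia: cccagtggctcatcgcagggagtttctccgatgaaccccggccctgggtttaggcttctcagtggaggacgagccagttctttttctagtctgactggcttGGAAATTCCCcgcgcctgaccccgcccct

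Nfkbie, chr17:45555570-45555699 on the plus strand:
Nfkbie: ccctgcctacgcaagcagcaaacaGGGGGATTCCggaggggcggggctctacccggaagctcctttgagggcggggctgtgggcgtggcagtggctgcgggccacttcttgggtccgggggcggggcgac

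Tnfaip3, chr10:19015411-19015540 on the minus strand:
Tnfaip3: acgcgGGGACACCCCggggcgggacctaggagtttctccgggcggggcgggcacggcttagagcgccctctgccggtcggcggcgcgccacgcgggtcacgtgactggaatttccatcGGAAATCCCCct

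Rel, chr11:23770971-23771099 on the minus strand:
Rel: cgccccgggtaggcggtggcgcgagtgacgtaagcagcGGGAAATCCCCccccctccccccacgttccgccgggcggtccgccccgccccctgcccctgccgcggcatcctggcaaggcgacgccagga

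Nfkb2, chr19:46304689-46304717 on the plus strand, given only around its first match because the region lies in an annotated exon:
Nfkb2: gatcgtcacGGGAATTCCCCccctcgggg

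The match in Nfkbia lay 29 to 20 bases before the start site and that in Nfkbie 106 to 97 bases before it. Tnfaip3 had a match at 125 to 116 bases and another at 12 to 3 bases before its upstream start site, and none at its other listed start. In Rel and in the first Nfkb2 promoter, matches on both strands overlapped at a near-palindromic site. The printed Nfkb2 promoter held another match 11 bases before the start, and the remaining listed promoters of Nfkb2 shared a further site. Its promoter 2 also held an unshared match 236 to 227 bases before its start. These stretches are rich in G and C, which make up 56.7% of the upstream Tnfaip3 promoter and 75% of that of Rel, and a match to the letters is not a measured binding site. Among other genes of the pathway, 17 of 77 with a listed promoter held a match.

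Library totals ranged from 428106 to 1300805 counts, which is low for RNA-seq, and the 10 genes together held between 816 and 2302 counts in a library. Their summed level was 1823 to 2002 CPM (counts scaled to a common library size, corrected for composition) in WT and 1737 to 2320 CPM in ΔrsCBE. The sorted population matched its label: all 10 small pre-B markers on the list used had counts, and their summed CPM was 11902 to 14090 in WT and 12823 to 13368 in ΔrsCBE. Of the marker lists for other lineages, the 10 T and NK cell genes summed to at most 2.53 CPM and the 8 erythroid genes to at most 2.42 CPM in any library, with Cd3e, Cd8a and Alas2 at 0 in all 6. The 6 dendritic genes summed to at most 5.17 CPM. The 11 myeloid genes summed to 53.1 to 85.8 CPM in WT and 59.3 to 72.0 CPM in ΔrsCBE, most of it from Itgam, with S100a8, Elane and Ly6c2 at 0. Summed CPM of mature B, plasma cell and pro-B to large pre-B markers overlapped between the groups. ΔrsCBE replicates 2 and 3 had the Xist counts of female cells (1603 and 1430) and no Y-linked counts, while the other 4 libraries had a male pattern, so sex is partly confounded with genotype. ΔrsCBE replicate 1 thus did not share a mouse with ΔrsCBE replicates 2 and 3. Whether libraries of the same genotype and sex pattern did is not known.

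The comparison of the genotypes asked whether the family differed in expression. None of the 10 genes passed the threshold of an adjusted p under 0.05 in edgeR's quasi-likelihood test, in either direction, and 0 of 10 had an unadjusted p under 0.05. The DESeq2 Wald test also called 0 of 10, with 0 at an unadjusted p under 0.05. Over all 7792 tested genes it called 92, with 463 at an unadjusted p under 0.05. In edgeR 1.69% of all tested genes were called and 10.2% had an unadjusted p under 0.05. For 16.1% of all tested genes the CPM values did not overlap between the groups. The values of every one of the 10 genes overlapped. Their median log2 fold change (ΔrsCBE over WT) was 0.05, against 0.01 over all tested genes, with a range from -0.26 in Relb to 0.39 in Tnfaip3. The 95% interval of the fold change lay within 2-fold in either direction for 9 of the 10 genes, all but Tnfaip3, and within 1.5-fold for 7 of 10. In bulk libraries, fewer cells of a type and less RNA per cell cannot be told apart.

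**Figure D1:**
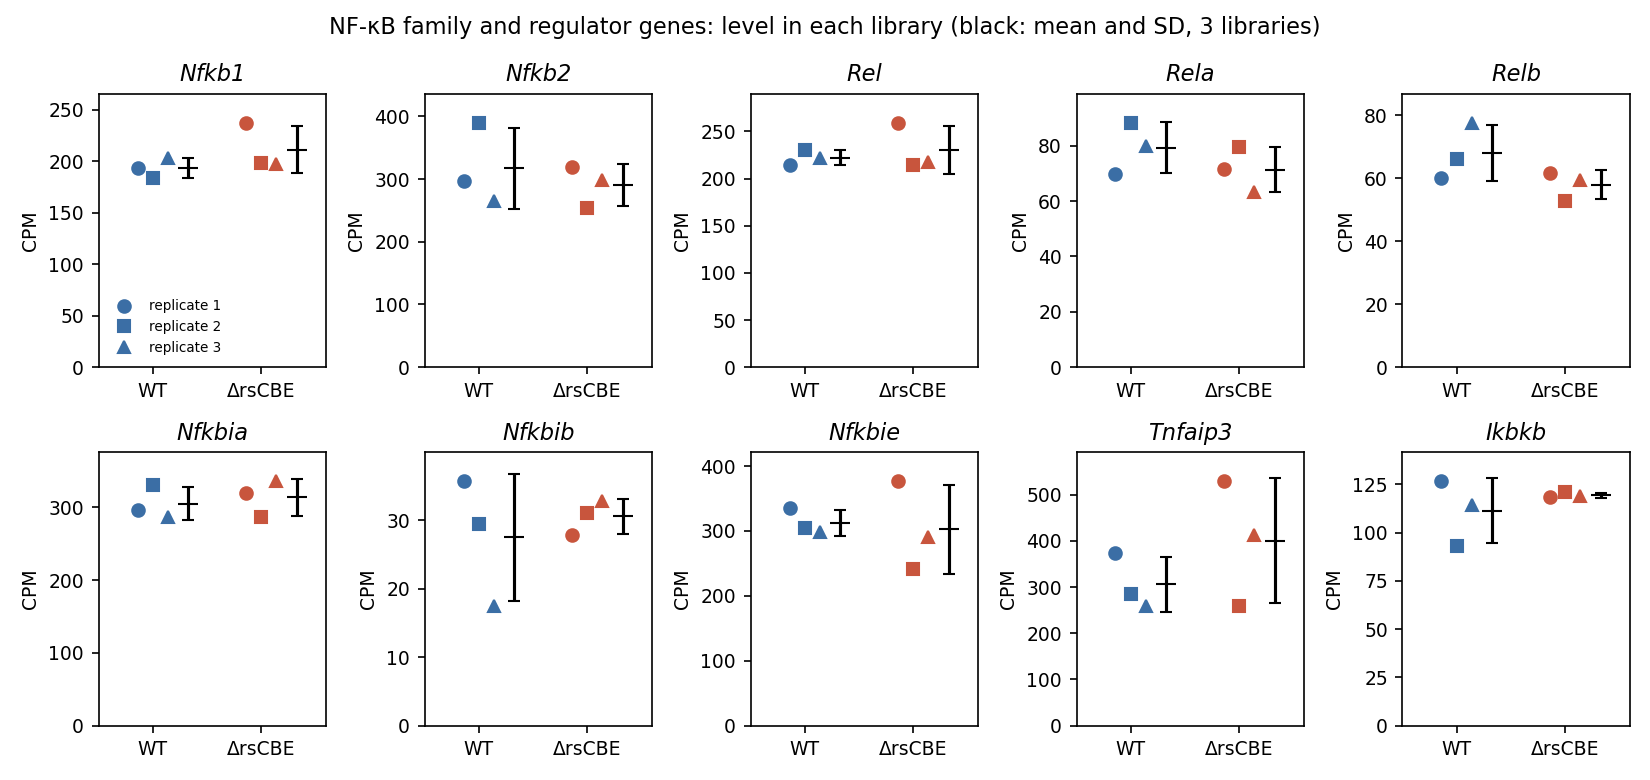
Level of each of the 10 genes in CPM (vertical axes, starting at 0) in the 3 WT and 3 ΔrsCBE libraries, with symbols for replicates 1 to 3 and the mean and SD in black. The groups overlap in every panel, and Tnfaip3 spans the widest absolute range, from 259 to 529 CPM.

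Among the subunits of the fast, canonical branch, Nfkb1 encodes p105, the precursor of the p50 subunit. In the order of the replicate numbers, the WT libraries had 193, 184 and 203 CPM and the ΔrsCBE libraries 237, 198 and 197 CPM. A single library, ΔrsCBE replicate 1, stood above the rest, and ΔrsCBE replicates 2 and 3 lay within the WT range. The fold change was 1.08 with a 95% interval of 0.892 to 1.31 (edgeR adjusted p = 0.849). Rel, which encodes c-Rel, a subunit characteristic of lymphocytes, had 214, 230 and 222 CPM in WT and 259, 214 and 217 CPM in ΔrsCBE. Again ΔrsCBE replicate 1 was the highest library, and ΔrsCBE replicate 2 was the lowest by a small margin below WT replicate 1. The fold change of Rel was 1.04 (0.859 to 1.25, edgeR adjusted p = 0.954). Rela encodes p65, the subunit with the strongest activating domain in many cell types. It had 69.8, 88.3 and 80.0 CPM in WT and 71.4, 79.6 and 63.1 CPM in ΔrsCBE, so each group spanned most of the range of the other. Its fold change was 0.910 (0.694 to 1.19, edgeR adjusted p = 0.882).

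The genes of the slower, noncanonical branch did not differ beyond their spread either. Nfkb2, which encodes p100, both the precursor of p52 and an inhibitor in its own right, had 297, 390 and 264 CPM in WT and 320, 254 and 299 CPM in ΔrsCBE. WT replicate 2 was the highest library, and it was also the one with the fewest counts. The fold change was 0.936 (0.767 to 1.14, edgeR adjusted p = 0.887). Relb, the partner of p52, had the lowest fold change of the family, 0.832 (0.625 to 1.11), with 60.0, 66.2 and 77.6 CPM in WT and 61.7, 52.7 and 59.4 CPM in ΔrsCBE. ΔrsCBE replicate 1 lay above WT replicate 1, so the groups overlapped, and the edgeR adjusted p was 0.732.

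Nfkbia encodes IκBα, the inhibitor that is degraded and resynthesised most quickly, and its promoter carries the κB match shown above. Its level was 297, 331 and 287 CPM in WT and 320, 286 and 336 CPM in ΔrsCBE. The ratio of the highest to the lowest library, 1.17, was the smallest of the 10 genes, and the coefficient of variation within groups (7.51% in WT and 8.06% in ΔrsCBE) was close to the 7.22% and 6.10% that counting error alone gives. The fold change of 1.04 had an interval of 0.871 to 1.23 (edgeR adjusted p = 0.953). Nfkbie, which encodes IκBε, an inhibitor prominent in B cells, had 336, 304 and 298 CPM in WT and 376, 241 and 290 CPM in ΔrsCBE. The ΔrsCBE libraries thus held both the highest and the lowest value, and the fold change was 0.967 (0.792 to 1.18, edgeR adjusted p = 0.965). Nfkbib encodes IκBβ and was the least counted of the family, with 12 to 30 counts in a library. It had 35.7, 29.4 and 17.4 CPM in WT and 27.8, 31.0 and 32.8 CPM in ΔrsCBE, a fold change of 1.19 (0.765 to 1.86, edgeR adjusted p = 0.854). WT replicate 3 alone held the low value, and without it the log2 fold change was -0.11 in place of 0.25. A change of the size that this interval spans was not detectable in Nfkbib at this depth.

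Ikbkb encodes IKKβ, the kinase that phosphorylates IκBα in the canonical branch. It had 127, 93.2 and 114 CPM in WT and 119, 121 and 119 CPM in ΔrsCBE, so the ΔrsCBE values all fell inside the WT range. The fold change was 1.06 (0.841 to 1.33, edgeR adjusted p = 0.927).

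Tnfaip3 encodes A20, a ubiquitin-editing enzyme that shuts down signalling to the IκB kinase and whose gene is rapidly induced by NF-κB. It had the most counts of the family, 1688 over the 6 libraries, and the largest SD of log2 CPM within groups, although the ratio of the highest to the lowest library was about the same in Nfkbib (2.05) as in Tnfaip3 (2.04). The WT libraries had 373, 284 and 260 CPM and the ΔrsCBE libraries 529, 259 and 412 CPM. ΔrsCBE replicates 1 and 3 were above every WT library, whereas ΔrsCBE replicate 2 was level with the lowest of them, WT replicate 3. WT averaged 306 ± 59.6 CPM (SD, n = 3) and ΔrsCBE 400 ± 135 CPM (SD, n = 3). On the log2 scale the fold change was 0.39 (standard error 0.26, interval -0.22 to 1.01, edgeR adjusted p = 0.711). Counting error alone gives a coefficient of variation of 7.31% in WT and 5.58% in ΔrsCBE, and the observed values were 19.5% and 33.8%. The SD of its log2 CPM within groups was 0.41, larger than in 98.5% of the 591 tested genes whose mean level was within 1.5-fold of its own. The result turned on single libraries, and its p-value also on the settings. With all 6 libraries the unadjusted p was 0.179 in the main edgeR fit and 0.249 in the DESeq2 Wald test. In edgeR it was 0.0151 with a replicate block and 0.00230 without a count filter (adjusted p = 0.292 and 0.154, not called). Without ΔrsCBE replicate 2 the log2 fold change was 0.63 and Tnfaip3 passed the threshold (edgeR adjusted p = 0.00664, the 1 gene of the 10 to do so). That fit called 187 of 8115 tested genes, against 132 of 7792 in the main fit. Without ΔrsCBE replicate 1 the log2 fold change of Tnfaip3 was 0.14 (edgeR adjusted p = 0.851). Among the male-pattern libraries it was 0.80, but there ΔrsCBE is represented by replicate 1 alone, the library with the highest Tnfaip3 level. That value thus has no replicate in ΔrsCBE. With library sex as a covariate the log2 fold change was also 0.80, again resting on ΔrsCBE replicate 1.

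**Figure D2:**
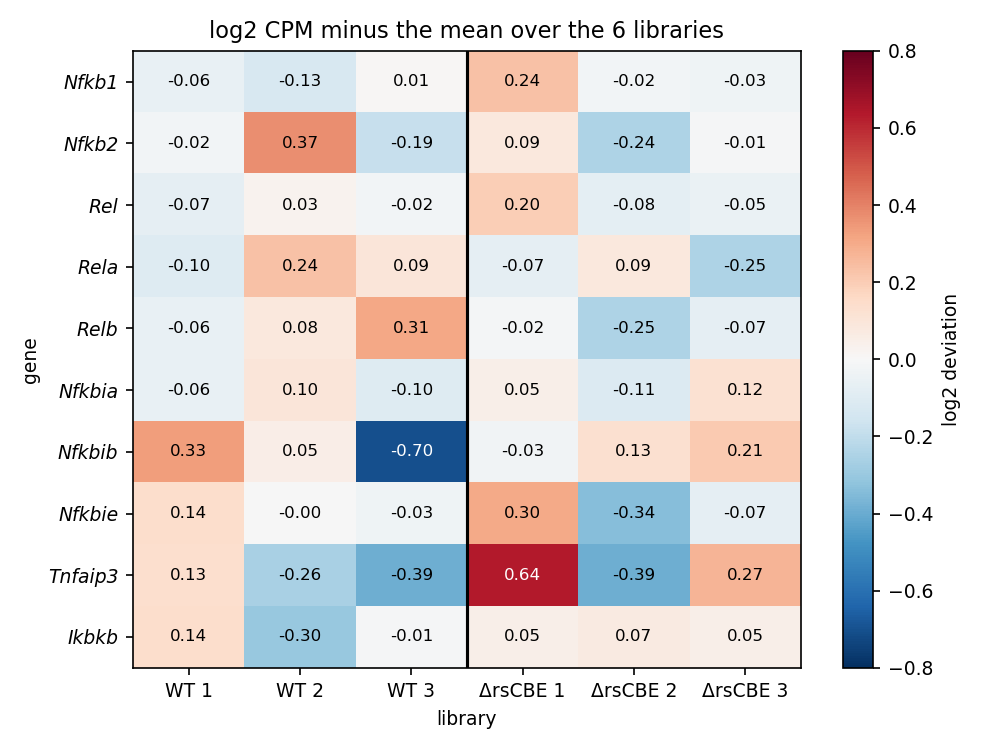
For each gene, log2 CPM less its 6-library mean (colour and printed value), with genes in rows and libraries in columns; the black line divides WT from ΔrsCBE. Tnfaip3 ranges from -0.39 in WT replicate 3 and ΔrsCBE replicate 2 to 0.64 in ΔrsCBE replicate 1, and Nfkbib is lowest, at -0.70, in WT replicate 3.

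ΔrsCBE replicate 2 was the lowest of the 6 libraries for 6 of the 10 genes (Nfkb2, Rel, Relb, Nfkbia, Nfkbie and Tnfaip3), and ΔrsCBE replicate 1 was the highest for 4 (Nfkb1, Rel, Nfkbie and Tnfaip3). In Rel, Nfkbia and Tnfaip3 the next lowest library was almost level with replicate 2 (213.9 against 214.2, 286.3 against 287.5 and 259.4 against 259.7 CPM). How often these libraries were lowest or highest over all tested genes was not counted. The summed CPM of the family was 2320 in ΔrsCBE replicate 1, 1737 in replicate 2 and 2026 in replicate 3. The 3 libraries of that genotype were set apart in the same order by a list of early-response genes, such as Fos, Jun and Egr1, known for their fast and brief induction. The 16 genes of that list summed to 4113, 3595 and 3756 CPM in the WT libraries and to 6883, 4812 and 6547 CPM in the ΔrsCBE libraries. Of its 13 tested genes 4 were called by edgeR, all higher in ΔrsCBE. Over all 7792 tested genes 132 were called (1.69%), 16 of them higher and 116 lower. The 23 cell-cycle genes summed to 6892, 7528 and 7208 CPM in WT and to 3170, 4679 and 2911 CPM in ΔrsCBE, and 14 of 21 tested were called lower. ΔrsCBE replicate 2 thus lay nearest to WT on both lists, and the part of either in the Tnfaip3 values was not tested. Both lists were chosen with earlier results of these data known. They are therefore no independent yardstick, and the shared order of 3 libraries is a description only.

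**Figure D3:**
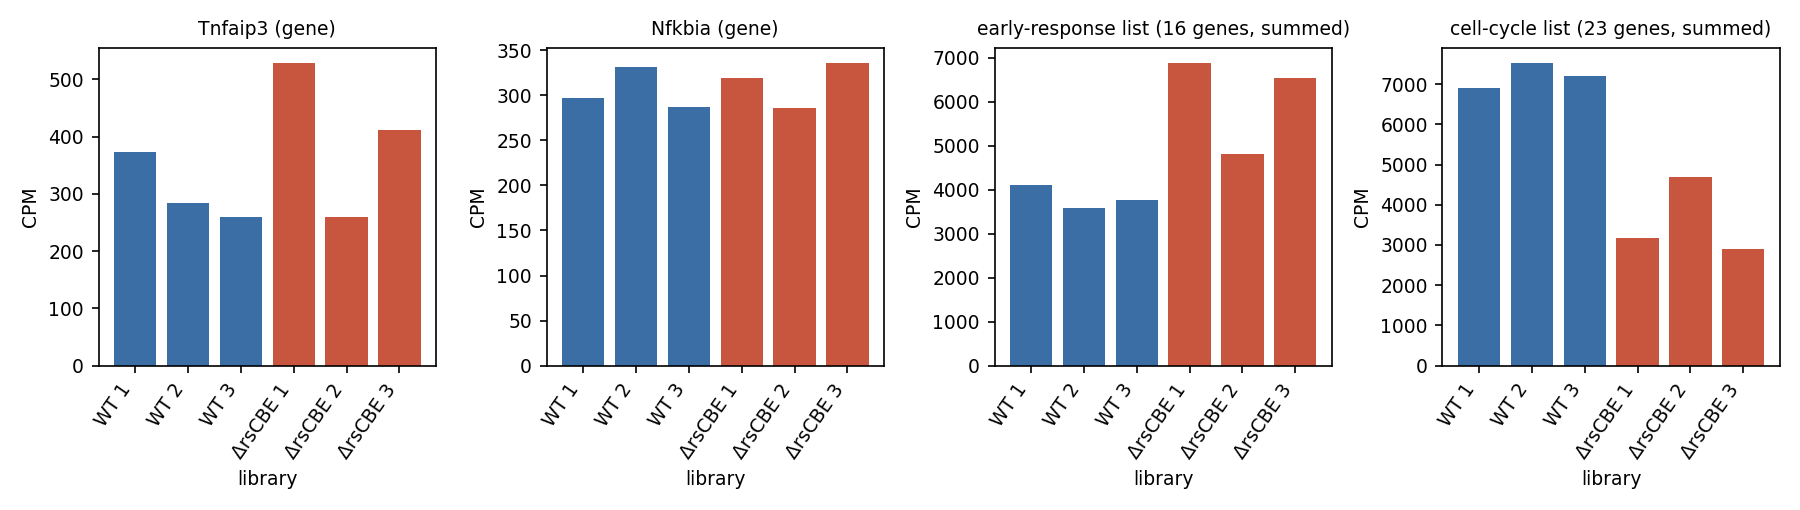
Level in CPM in each library (bars, vertical axes starting at 0; WT blue, ΔrsCBE red) of Tnfaip3, of Nfkbia and of the summed early-response and cell-cycle lists. Tnfaip3 and the early-response list are both highest in ΔrsCBE replicate 1, at 529 and 6883 CPM, while Nfkbia stays between 286 and 336 CPM.

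By Pearson correlation of log2 CPM over the 6 libraries, the tested genes most like Tnfaip3 were Chst3 (r = 0.996), Wwp2 (r = 0.995) and Eif5 (r = 0.983), the closest of 7791 genes compared. This describes the shape of 6 values only, since Chst3 moved far less, between 1513 and 1710 CPM, and none of these genes was called.

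Levels were compared between genes per kb of exon, using the union of the exons in GENCODE M21 on GRCm38, the build that the submitters' processing notes call mm10. Nfkbia was the most abundant of the family at 192 CPM per kb over the 6 libraries, and its lowest library (178) was above the highest of any other gene of the 10 (124, in Nfkbie). Nfkbie followed at 101, Nfkb2 at 66.3, Tnfaip3 at 48.8, Rel at 30.3, Rela at 24.5, Nfkb1 at 16.8, Relb at 16.2, Nfkbib at 13.4 and Ikbkb at 6.05 CPM per kb. The ranges over libraries overlapped between the neighbours Nfkbie and Nfkb2, Nfkb2 and Tnfaip3, Rel and Rela, Nfkb1 and Relb, and Relb and Nfkbib. Within each library and with this length, Nfkbie exceeded Nfkb2 and Rel exceeded Rela in 6 of 6, with a ratio of Rel to Rela between 1.07 and 1.49. The order depended on the length used. With the longest single transcript as the length, Rela exceeded Rel in WT replicate 2 and ΔrsCBE replicate 2, and Nfkb2 exceeded Nfkbie in WT replicate 2. The largest moves were those of Nfkb1 and Ikbkb, for which the 2 lengths differ most: Nfkb1 came to 48.7 CPM per kb and the fifth place and Ikbkb to 23.8 and the eighth, while the first 4 genes kept their places.

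**Figure D4:**
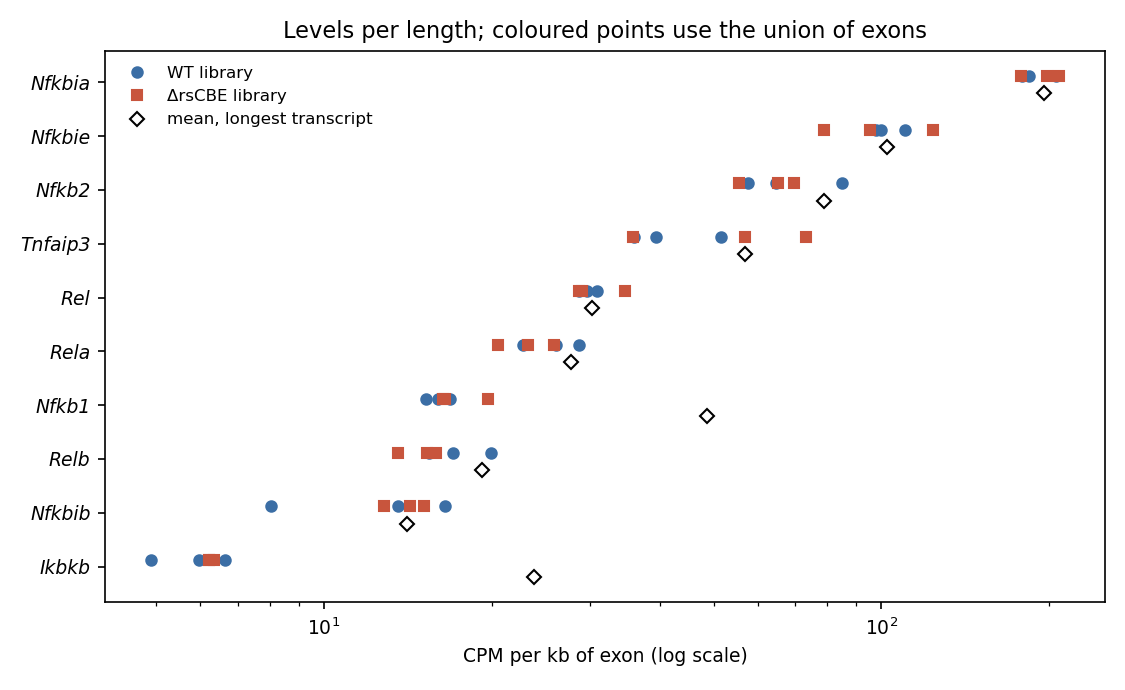
CPM per kb of exon (log axis) for each gene, ordered by the mean over 6 libraries, with WT libraries as blue circles and ΔrsCBE libraries as red squares; diamonds give the mean when the longest transcript is used as the length. Nfkbia leads at 192 CPM per kb, and the diamonds of Nfkb1 (48.7) and Ikbkb (23.8) stand well to the right of their points.

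Some of these genes share their position with others. Nfkb2 (chromosome 19, 46304320 to 46312385, plus strand) overlaps Psd and AC114539.1 on the opposite strand, Nfkbib (chromosome 7, 28758251 to 28767512, minus strand) overlaps Sirt2 and Ccer2, and Ikbkb (chromosome 8, 22659212 to 22706589, minus strand) overlaps Gm15346. The library kit marked the strand, but the sources used here do not say whether counting used it, so reads of these pairs are uncertain. Nfkb1 (chromosome 3, 135584655 to 135691547, minus strand) overlaps Gm43430 on its own strand. For Nfkbia (chromosome 12, 55489410 to 55492647, minus strand), Tnfaip3 (chromosome 10, 19000910 to 19015657, minus strand), Nfkbie (chromosome 17, 45555703 to 45563169, plus strand), Rel (chromosome 11, 23736847 to 23770970, minus strand), Rela (chromosome 19, 5637483 to 5648130, plus strand) and Relb (chromosome 7, 19606217 to 19629438, minus strand) the annotation gives no overlapping gene.

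The wider pathway was followed with 97 other genes in 6 lists, of which 68 were tested. None was called by edgeR, and 6 had an unadjusted p under 0.05, 3 higher and 3 lower in ΔrsCBE, a share no larger than the 10.2% over all tested genes. The DESeq2 Wald test called 0 and had 4 at an unadjusted p under 0.05, against 92 and 463 of all 7792 tested genes. The median log2 fold change of the 68 genes was 0.04, against 0.01 over all tested genes, and 8 of 68 did not overlap between the groups, again no larger a share than the 16.1% over all tested genes.

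Among the 8 other core components, which include the remaining kinase subunits Chuk and Ikbkg and the nuclear IκB proteins, 7 were tested and had log2 fold changes from -0.08 to 0.37. Nfkbid and Bcl3, nuclear IκB genes, had the smallest p-values of that list, with log2 fold changes of 0.18 and 0.32 (edgeR adjusted p = 0.820 and 0.827). The Nfkbid values (154, 115 and 131 CPM in WT, and 192, 104 and 163 CPM in ΔrsCBE) had ΔrsCBE replicate 1 at the top and replicate 2 at the bottom, as in Tnfaip3. Of 25 upstream signalling genes 24 were tested. Sharpin, part of the linear ubiquitin ligase that feeds the kinase, had 63.3, 53.9 and 92.7 CPM in WT and 110, 97.1 and 93.5 CPM in ΔrsCBE, without overlap but with an edgeR adjusted p of 0.426. Tab3, an adaptor of the kinase TAK1, had 45.4, 39.2 and 50.7 CPM in WT against 33.9, 33.1 and 31.6 CPM in ΔrsCBE, also without overlap (log2 fold change -0.50, edgeR adjusted p = 0.483).

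Among 12 further negative regulators, 10 of them tested, the smallest p-values belonged to Zfp36 and Zc3h12a, whose proteins bind and destabilise cytokine messages. Zfp36 is also on the early-response list. It had 127, 152 and 160 CPM in WT and 182, 190 and 244 CPM in ΔrsCBE, with no overlap (log2 fold change 0.47, edgeR adjusted p = 0.145). Zc3h12a had 37.3, 36.8 and 42.8 CPM in WT and 93.2, 31.0 and 59.4 CPM in ΔrsCBE, again with replicate 2 of ΔrsCBE lowest of all 6 (log2 fold change 0.60, edgeR adjusted p = 0.536). The ubiquitin ligase that marks phosphorylated IκB had 4 of 5 genes tested, all with log2 fold changes below 0 and none called. They include Fbxw11, at -0.33 (edgeR adjusted p = 0.585), and Cul1, at -0.14 (edgeR adjusted p = 0.857).

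Only 8 of 17 receptor genes were tested, because Tnfrsf17 and Il1r1 had no counts and others, such as Ltbr, Tnfrsf1a and Tlr4, had 1 to 18. The receptors tested had log2 fold changes from -0.27 to 0.30. Cd79a, the signalling chain of the B-cell receptor and a marker of the sorted cells, averaged 1083 ± 212 CPM in the WT libraries and 913 ± 50.6 CPM in the ΔrsCBE libraries (SD, n = 3). The log2 fold change was -0.24 (edgeR adjusted p = 0.483). For Tlr9, a receptor for unmethylated DNA, it was 0.26 (edgeR adjusted p = 0.774).

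Of 30 genes known as NF-κB targets in various cells, 15 were tested. Many of the inflammatory targets had few or no counts: Lta, Il6, Ccl3, Ccl4 and the Bcl2a1 copies had 0 counts in the 6 libraries, and Tnf and Traf1 had 1 each. The sources used here do not say how reads that match more than 1 Bcl2a1 copy were counted. A floor of 3 counts, set here, corresponds to 2.38 to 7.36 CPM in a library, and lower levels rest on too few counts to be measured. Junb, which is also on the early-response list, had the smallest p-value of all 68 genes, with 141, 125 and 128 CPM in WT and 283, 145 and 216 CPM in ΔrsCBE. Every ΔrsCBE library was above every WT library, but replicate 2 by little, and the log2 fold change of 0.70 had an edgeR adjusted p of 0.0665. Ltb, which encodes lymphotoxin β and has a κB match in its promoter, had 29.2, 31.9 and 17.4 CPM in WT and 10.9, 8.27 and 12.6 CPM in ΔrsCBE. The Ltb groups did not overlap, and the log2 fold change was -1.20 (standard error 0.38, edgeR adjusted p = 0.145). Without ΔrsCBE replicate 2, 3 of the 69 pathway genes tested there passed the threshold, all higher. They were Junb (log2 fold change 0.93), Zc3h12a (0.94) and Cd69 (0.66), a lymphocyte activation antigen named here after its values were seen. The same fit called 187 of 8115 tested genes, against 132 in the main fit.

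**Figure D5:**
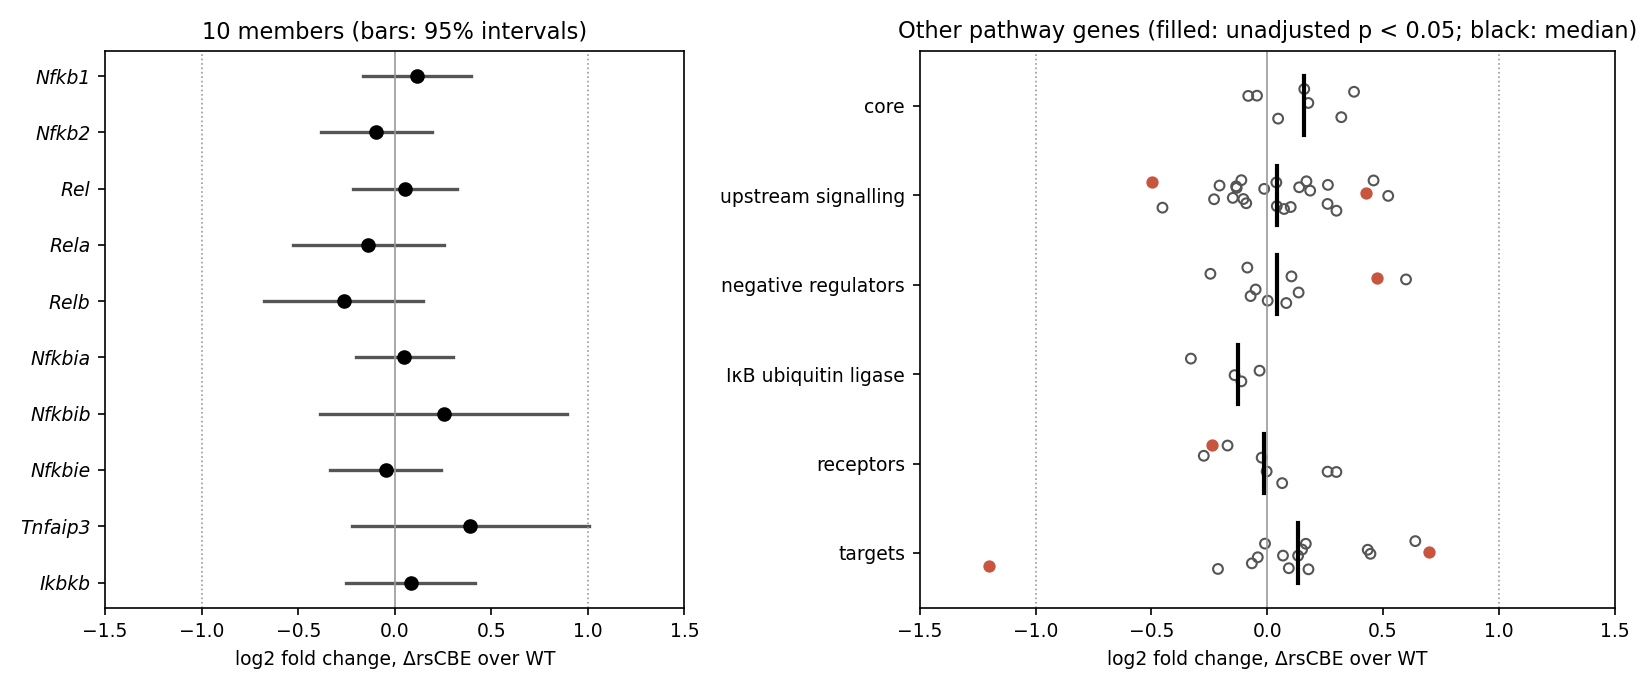
Left, log2 fold change of each of the 10 genes with its 95% interval; right, log2 fold changes of the 68 tested pathway genes by list, with filled red points for an unadjusted p under 0.05 and a black bar at each list's median; dotted lines mark 2-fold. Every interval on the left includes 0, and 6 points on the right are filled, with Ltb at -1.20 and Junb at 0.70 the farthest out.

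Tested genes with a listed promoter were split by whether it held a κB match, as a description and without a test. Of 380 tested genes with a match 6 were called (1.58%) and the median log2 fold change was -0.01, and of 5620 tested genes without one 103 were called (1.83%) with a median of 0.01. These shares describe letters in a fixed window and say nothing of the activity of the factor.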

How the data were processed

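The authors' deposited table gives raw read counts by gene symbol, each library in its own column; per the submitters' processing notes, the authors used Trim Galore 0.6.10, STAR 2.7.11, HTSeq and DESeq2 with the build mm10, with no role or order given. The strand setting, annotation and filters are not given in the sources used here. Counts were tested with edgeR 4.0.16 in R 4.3.3: filterByExpr with a minimum count of 10, TMM scaling, glmQLFit (robust) and glmQLFTest with genotype as the sole factor, over all 6 libraries, with Benjamini-Hochberg adjustment over 7792 genes. Standard errors and intervals follow from the F value of the quasi-likelihood test. CPM used TMM-scaled totals of the tested genes, and log2 CPM for correlations and spread used a prior count of 2. Intervals and floors cover the spread between libraries or counting error, not molecules, since there were no molecular identifiers. The fit was tested on simulated data. The 10 genes and the lists were chosen with earlier results of these data known. Pathway genes were named where called, and otherwise the 2 with the smallest p in each list. Alternatives covered scaling, filter, test (DESeq2 1.42.0), threshold, single libraries, replicate block, library sex and gene length.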

Additional observations from a re-analysis of the deposited data

How the results depend on the processing

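Across 15 alternatives, 137 of 150 log2 fold changes of the 10 genes kept their direction and their side of the threshold. Changes of sign, all short of the threshold, came without 1 library in Nfkbie (-0.24 to 0.10), Nfkb2 (-0.23 to 0.064), Nfkbib (-0.11 to 0.53), Rel (-0.041 to 0.11) and Nfkbia (-0.0030 to 0.12). They also came with library sex as a covariate (Nfkb2 0.050, Nfkbie 0.27) and in male-pattern libraries alone (Nfkb2 0.052, Nfkbie 0.27). Tnfaip3 was called without ΔrsCBE replicate 2 (log2 fold change 0.63) and in male-pattern libraries alone (0.80), where ΔrsCBE is 1 library with no replicate and is assumed to vary as WT does, so that no call there rests on the spread of ΔrsCBE; leaving out 1 library gave 0.14 to 0.63. The count of the 10 genes called was 0, and was 0 to 1 without 1 library. For the other pathway genes it was 0, and 0 to 3 without 1 library. It was 1 (Junb) without a count filter, with a filter at 1 CPM in 3 libraries and at an adjusted p under 0.1. With library sex it was 2 (Junb and Zc3h12a). Over all genes 132 became 59 to 187 without 1 library and 87 with library sex. With no female WT library, the fit with library sex rests on ΔrsCBE replicate 1. The 132 became 171 without a count filter, 175 with the filter at 1 CPM and 188 at an adjusted p under 0.1. The cause of these shifts was not tested. With a replicate block 0 of the 10 genes and 1 pathway gene, Junb, were called, and 136 of all genes. Same-numbered libraries deviated together with correlations of only 0.01 to 0.02, and not every library correlated best with its own number, so the numbers were not taken as pairs. With the longest transcript as the length, 4 of the 10 genes kept their rank. Depth limits Nfkbib and genes under the count filter most.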
